A study of Magallana gigas with 6 samples.

Results

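The 161 genes that supplied the most reads in oyster mantle are described here. They were selected on their level, as the rows with identifiers starting with Cg whose counts per 1000000 reads of the column total (CPM) averaged 1000 or more over all 6 libraries. They are 161 of 30342 rows with Cg identifiers and 0.462% of the 34871 rows in all. Since the level alone chose them, their abundance is a description. The difference between the groups was not part of the choice, except that a gene with a high level in 1 group could reach the limit through that group alone.

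Messenger RNA was measured in the mantle of F2 oysters whose grandparents were females of Crassostrea angulata and males of Crassostrea gigas (also called Magallana gigas), sampled at 11 months of age. The high group is a pool of equal amounts of RNA from 40 animals with a high content of EPA+DHA, the long-chain fatty acids eicosapentaenoic acid and docosahexaenoic acid, and the low group is such a pool from 40 animals with a low content. All animals came from the same F2 population, and no treatment or other genotype is named. Each group has 3 libraries, described as technical replicates of the pool, so p-values measure the spread between libraries and not between oysters.

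The mantle is the tissue that lines the shell. Its epithelium secretes the proteins and mineral of the shell, and it also holds muscle, nerve and blood cells. In animal tissues a small number of genes usually supplies a large part of the messenger RNA, often genes for ribosomal proteins, the cytoskeleton, mitochondrial enzymes and proteins the tissue secretes. Which of these are among the 161 genes cannot be stated, because the table pairs no identifier with a name and 0 of the 161 identifiers matched the RefSeq gene table of assembly xbMagGiga1.1. For the same reason the tissue label could not be checked against marker genes, and no positions or sequences are given. Gene lengths are not known either, so the order of the genes is an order of reads and not of transcript molecules.

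Column totals ran from 9788187 to 12751690 reads. The scaling factors by the TMM method of edgeR were 0.947 to 0.961 for the high libraries, against 1.12, 1.27 and 0.810 for low libraries 1, 2 and 3. Low library 2 was thus farthest from the high libraries on one side, and low library 3 was the only low library on the other.

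The abundant genes held about the same share of reads in every high library and very different shares in the low libraries. They took up 50.4%, 50.7% and 51.0% of the reads in high libraries 1, 2 and 3. In low libraries 1, 2 and 3 they took up 46.3%, 41.9% and 54.9%. The means were 50.7% ± 0.300 and 47.7% ± 6.61 (SD, n = 3 each), and the low libraries lay on both sides of the high ones. The exact two-sided permutation test gave p = 0.5 for the difference, and 3 libraries against 3 cannot go below 0.1. The difference of 2.98 percentage points became 0.0832 without low library 2 and 6.58 without low library 3 (exact permutation p of 1.0 and 0.2). In pooled tissue, fewer cells of a type and less RNA per cell cannot be told apart.

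The share split into parts that moved in opposite directions. Of the 161 genes, 140 averaged at least 1000 CPM in both groups, 12 did so in the high group only and 9 in the low group only. The 140 genes held 48.1%, 48.4% and 48.6% of the reads of the high libraries, against 43.6%, 38.0% and 44.4% in low libraries 1, 2 and 3. Each high library was above each low library, with means of 48.4% ± 0.267 and 42.0% ± 3.51 (SD, n = 3 each) and p = 0.1 in the exact permutation test, the smallest possible. The 9 genes that reached the limit in the low group only held 0.411% ± 0.00432 in the high libraries, against 1.66%, 3.14% and 9.38% in low libraries 1, 2 and 3. A difference in that direction is built into the choice of these 9 genes, and likewise for the 12, which held 1.89% ± 0.0413 and 0.975% ± 0.160. The split itself widened the difference for the 140 genes, because it took out 9 genes that were higher in the low libraries. Shares of 1 column total also depend on one another, so more reads of the 9 genes leave a smaller share for the others. The test of the 140 genes cannot separate these effects from a difference of their own.

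**Figure D1:**
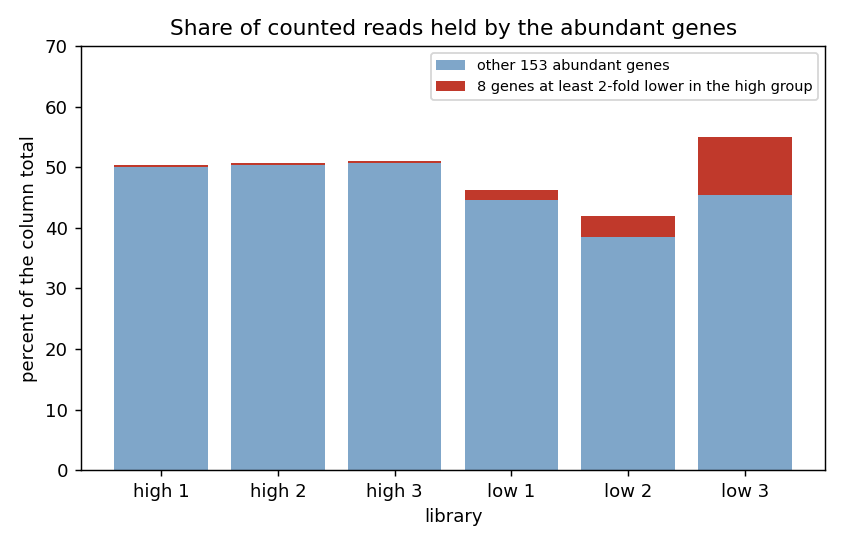
Percent of counted reads (y axis) held by the 161 abundant genes in each library (x axis), with the 8 genes that were at least 2-fold lower in the high group stacked on top. The 8 genes held 0.329% to 0.335% in the high libraries, against 1.64%, 3.43% and 9.53% in low libraries 1, 2 and 3, while the other genes held 50.05% to 50.6% in the high and 38.5% to 45.4% in those of the low group.

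Reads were concentrated in few rows, and to a different degree in each low library. Counted from the row with the most reads, 50% of all reads were reached with 140 to 145 rows in the high libraries. The low libraries needed 187, 258 and 112 rows. The 3 genes over 10000 CPM held 6.11% ± 0.237 of the reads of the high libraries and 5.13% ± 1.36 of the low ones, and the 17 genes between 5000 and 10000 CPM held 10.2% ± 0.0540 and 11.4% ± 1.47. The 79 genes from 2000 to 5000 CPM held 24.7% ± 0.308 and 23.1% ± 5.22, and the 62 genes from 1000 to 2000 CPM held 9.63% ± 0.151 and 7.99% ± 0.744 (SD, n = 3 each). The SD of the low libraries was the wider one in each of these 4 classes.

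The gene with the most reads, Cg29262, reached 26627, 27061 and 24010 CPM in high libraries 1, 2 and 3 and 27939, 18692 and 15212 CPM in low libraries 1, 2 and 3. Low library 1 was above the high libraries and the other two below them, so the groups overlapped. Cg21982 reached 15714, 16069 and 15879 CPM among the high libraries, against 19359, 18891 and 17129 CPM among the low ones. By CPM every low library was above every high one. Cg29200 had 19208, 20108 and 18674 CPM in the high libraries, 19629 in low library 1, and only 7646 and 9545 in low libraries 2 and 3. Its low library 1 lay within the high range. None of these 3 genes passed the test between the groups described below, and Cg21982 overtook Cg29262 as the first gene in low library 2. The order of the libraries is given by CPM for these and the following genes. With TMM-adjusted library sizes it changed for each of these 3, and low library 2 of Cg21982 fell below the high libraries.

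The next 6 genes, apart from the one at rank 7, had CPM of 4995 to 11227 in the high libraries. Cg13681 had 11016, 11227 and 11059 CPM among the high libraries, against 10122, 8403 and 6841 CPM among the low ones. Cg19915 had 9915, 8564 and 10369 CPM among the high libraries, against 7798, 6610 and 8300 CPM among the low ones. By CPM both were lower in every low library than in every high library. With TMM-adjusted library sizes low library 3 of Cg19915 lay within the high range. Cg26086 had 7467, 7027 and 8224 CPM in the high libraries and 9899, 11606 and 6530 in the low ones, and Cg19389 had 5523, 5687 and 4995 against 6738, 11288 and 5781. Of Cg26086, low library 3 was below the high libraries and the other two above them, while the groups of Cg19389 did not overlap. Cg29199, the identifier before Cg29200, had 7363, 8952 and 6349 CPM among the high libraries, against 6914, 3864 and 4941 CPM among the low ones. Cg19887 had 6768, 7134 and 6825 against 5601, 5033 and 6915 CPM, and both genes had groups that overlapped through 1 low library. None of these 6 genes was called different between the groups. Without low library 3, edgeR called Cg13681, Cg19915 and Cg19887 higher in the high group (adjusted p of 0.0326, 0.0158 and 0.0109).

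The remaining gene of the first 10, Cg19979 at rank 7, owed its place to the low group. It had 363, 358 and 349 CPM in the high libraries, against 4926, 9835 and 31367 CPM in low libraries 1, 2 and 3. It held 3.14% of the reads of low library 3, where it was the first of all rows, and it was in place 373 by the mean of the high libraries.

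**Figure D2:**
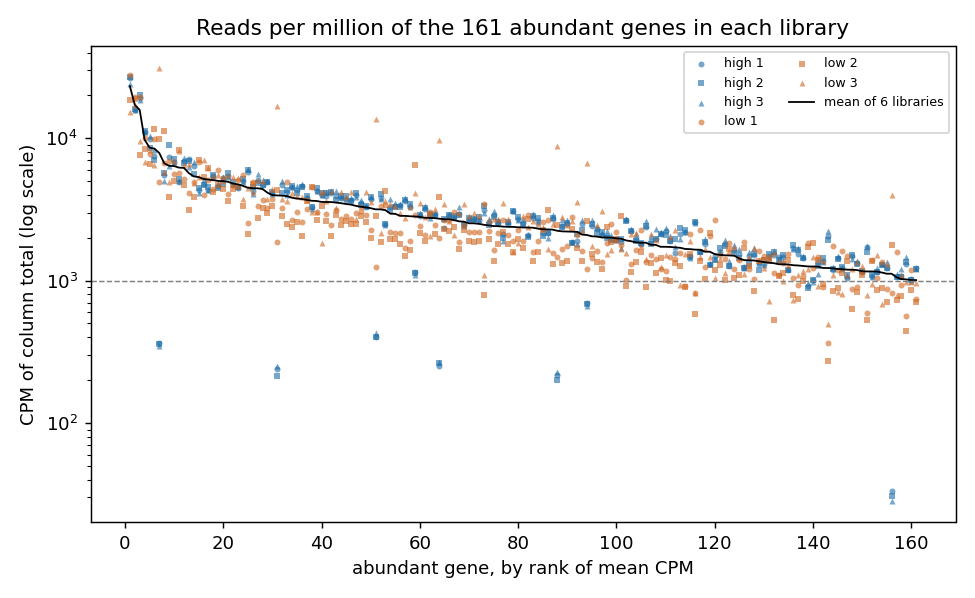
CPM (log scale, y axis) of each of the 161 abundant genes, ordered by mean CPM (x axis), with 1 point per library and the mean of the 6 libraries as a line. The high libraries lie close to one another at each gene, and away from the line where the groups differ, such as Cg19979 with 349 to 363 CPM in the high and 4926 to 31367 CPM in the low libraries. The dashed line marks the limit of 1000 CPM.

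The order of the genes was nearly the same in every high library and differed between low libraries. Spearman's rho over the 161 genes lay at 0.991 to 0.997 for pairs of high libraries and at 0.736 to 0.884 for pairs of low ones. Between a high and a low library low library 1 gave 0.753 to 0.769, low library 2 gave 0.612 to 0.629 and low library 3 gave 0.650 to 0.653. Over the 140 genes at 1000 CPM or more in both groups, the values for low library 3 were 0.870 to 0.874, above those of low library 1 (0.790 to 0.808) and low library 2 (0.745 to 0.763). The points are genes that share libraries, so no test is given. By group means, the genes differed by a median of 19 places among all rows, 55 of them by 10 places or fewer. The 3 genes that moved farthest belonged to those low in the high group, and they are described with the called genes below.

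The limit of 1000 CPM was not met in every library by every gene. In the high libraries 153, 153 and 151 of the 161 genes were at 1000 CPM or more, and in low libraries 1, 2 and 3 it was 148, 136 and 145. All 6 libraries were at or above it in 121 genes. The last genes inside the limit were Cg23796, with a mean of 1009 CPM and a range of 858 to 1194, and Cg19926, with a mean of 1008 CPM and a range of 710 to 1235. The first genes outside it were Cg26160, with a mean of 996 CPM, and Cg19696, with a mean of 990 CPM made of 137 to 156 CPM in the high and 411, 1108 and 3984 CPM in low libraries 1, 2 and 3.

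Within the high group the abundant genes were nearly constant, and within the low group they were not. The coefficient of variation (CV, the SD as a percent of the mean of 3 libraries) had a median of 3.21% in the high group, with an interquartile range of 1.99% to 5.61%, and of 23.2% in the low group, with 15.3% to 32.5%. The CV was higher in the low group for 160 of the 161 genes, with a median ratio of 6.77. Counting error was small beside either value, since the median CV that read number alone gives was 0.631% for the high and 0.609% for the low libraries. Of the 17648 tested rows that are not among the 161, 83.6% had the higher CV in the low group, and for the 1012 of these at 100 to 1000 CPM it was 96.2%, with median CVs of 3.87% and 23.9%. By CPM the gap between the groups was thus shared by genes of lower abundance. Low library 3 weighed on it, because the median CV of the abundant genes was 11.7% between low libraries 1 and 2 alone. With TMM-adjusted library sizes the median CV in the low group was 41.0% for the abundant genes and 23.3% for the rows at 100 to 1000 CPM, with median ratios to the high group of 11.4 and 5.98, so that on this scale the gap was wider for the abundant genes.

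The 3 lowest CVs of the high group were under the median CV that read number alone gives (0.631%). As the lowest of 161 they do not measure how close the high libraries were. Cg27195 had 2898, 2910 and 2902 CPM in the high libraries, a CV of 0.212%, and 2656, 2223 and 2607 CPM in the low libraries, a CV of 9.51%. Cg07445 had 3063, 3084 and 3076 CPM (CV 0.348%) against 1911, 1590 and 1584 CPM (CV 11.0%), and Cg27256 had 2688, 2690 and 2706 CPM (CV 0.380%) against 2213, 1855 and 3009 CPM (CV 25.0%). By CPM every low library was below every high library for both Cg27195 and Cg07445, while low library 3 of Cg27256 was above the high ones. With TMM-adjusted library sizes low library 3 of Cg27195 was also above them. At the other end, Cg29199 had a CV of 17.4% in the high group, Cg15250 one of 11.5% (1558, 1961 and 1736 CPM) and Cg21330 one of 9.87% (6391, 5581 and 6793 CPM). Those were the widest of the 161, and 0 genes had a CV over 20% in the high group, against 102 in the low group.

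By CPM the steadiest genes of the low group were Cg01199, Cg21982 and Cg19904. With TMM-adjusted library sizes the lowest CV in the low group was 4.08%, and it belonged to none of these genes. Cg01199 had 3137, 2872 and 3252 CPM there, a CV of 6.32%, against 3957, 3688 and 4264 CPM in the high libraries, a CV of 7.26%. By CPM Cg01199 was the only gene of the 161 with the lower CV in the low group, but not with TMM-adjusted library sizes, where its CV was higher there. Cg21982 had a CV of 6.37% in the low group, and Cg19904, with 1830, 1677 and 1608 CPM, one of 6.66%. The widest was Cg05034, with 1253, 2841 and 13672 CPM in low libraries 1, 2 and 3, a CV of 114%. In the high libraries it had 402, 403 and 431 CPM, a CV of 3.99%.

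**Figure D3:**
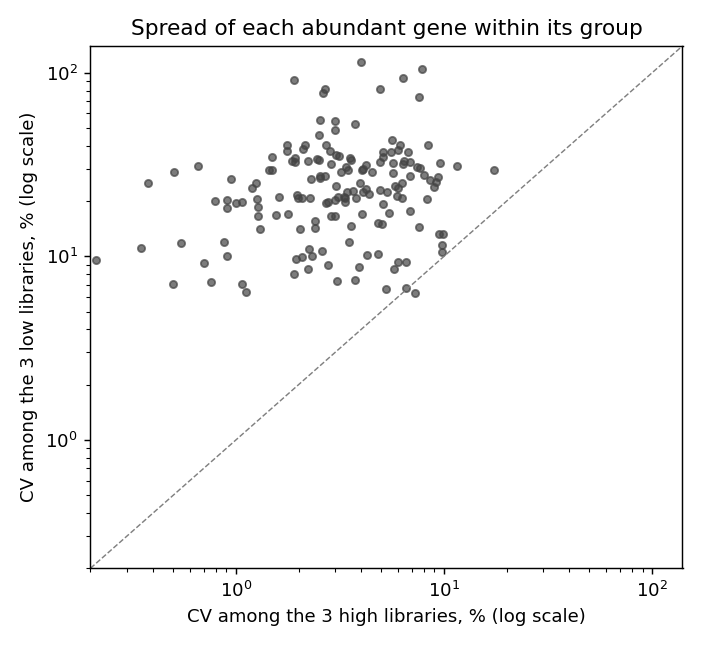
CV of each of the 161 abundant genes among the 3 high libraries (x axis, log scale, %) and among the 3 low libraries (y axis, log scale, %), with the line of equal CV dashed. All points but 1 lie above the line, with medians of 3.21% and 23.2%.

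The low libraries differed from one another in several ways. Low library 2 was the lowest of the 3 for 107 of the 161 genes and low library 3 the highest for 96, whereas over all 17809 rows tested low library 2 was the lowest for 16.7% and low library 3 the highest for 18.6%. With TMM-adjusted library sizes the counts were 139 and 129 of the 161 (86.3% and 80.1%), beside 35.4% and 41.8% of all rows. The percentages thus moved with the scale, while those of the 161 genes were above those of all rows on both scales. In 8 genes low library 3 was at least 2-fold above both other low libraries (4.97%, beside 2.90% of all rows tested). Of these 8 genes, 7 reached 1000 CPM in the low group only. Low library 3 thus helped to place them among the 161, so this percentage says nothing about abundant genes as such. In 4 genes low library 1 was at least 2-fold above both others (2.48%, beside 2.03%). They were Cg29200, Cg29264, Cg14656 and Cg27300, which were picked out after their values were seen. Cg29264 had 3450 CPM in low library 1 and 795 and 1101 in low libraries 2 and 3, against 3135, 3318 and 3008 CPM in the high libraries, so low library 1 was near the high level and the other two below it. Low library 2 was at least 2-fold above both others in 0 genes, against 7.76% of all rows tested. Among the high libraries, 0 genes had a library even 1.5-fold above both others.

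Measured against the mean of the high libraries, the typical abundant gene was lower in low libraries 1 and 2. The median log2 ratio of CPM over the 161 genes was -0.28, -0.52 and -0.06 for low libraries 1, 2 and 3. With TMM-adjusted library sizes the medians were -0.51, -0.92 and 0.18, so the sign for low library 3 depends on the scale. Below the mean of the high libraries were 103, 120 and 97 genes by CPM and 121, 140 and 49 by the TMM scale.

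**Figure D4:**
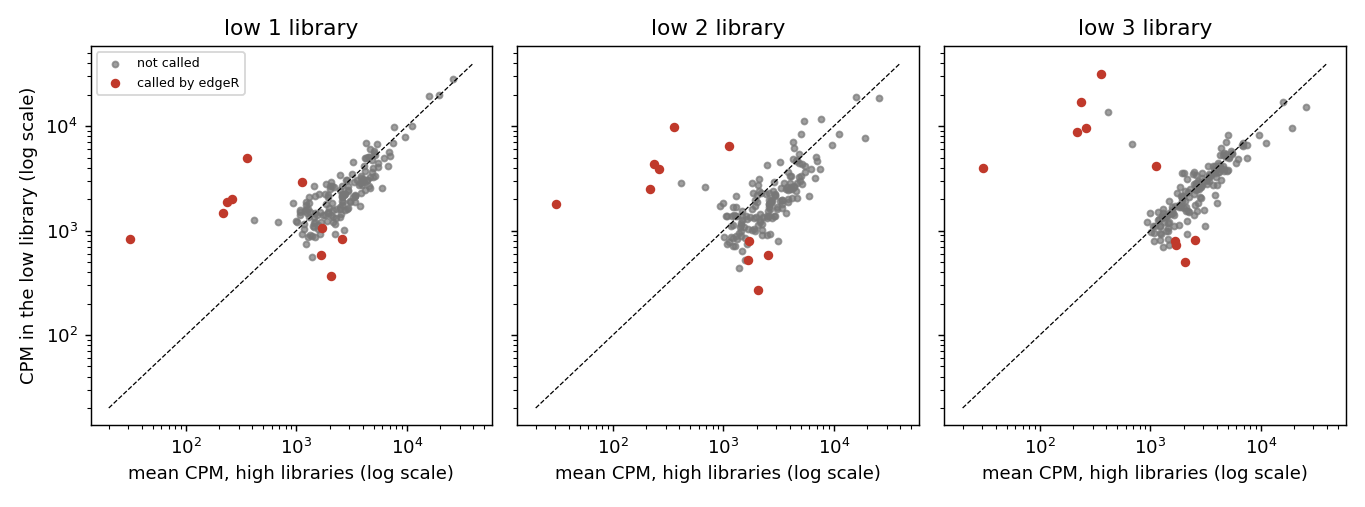
CPM of the 161 abundant genes in low library 1, 2 or 3 (y axis, log scale, 1 panel each) against their mean CPM in the 3 high libraries (x axis, log scale), with the line of equality dashed and the 10 genes called by edgeR in red. Median log2 ratios to the high mean were -0.28, -0.52 and -0.06, and the 5 called genes at the upper left are those that reached 1000 CPM in the low group only.

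Between high and low EPA+DHA, 4 of the 161 genes rose and 6 fell in the high group at an adjusted p under 0.05 (edgeR quasi-likelihood test over all 17809 rows). That is 2.48% higher and 3.73% lower, beside 2.58% and 1.66% of all rows tested, and 4.23% of all rows in either direction. All 4 risen genes reached 1000 CPM in the high group only, and 5 of the 6 fallen genes in the low group only. Such genes had to differ to be among the 161 at all, so neither count says anything about abundant genes as such. Of the 140 genes at 1000 CPM or more in both groups, 0 rose and 1 fell. Among these 140, edgeR gave 15 higher genes at an unadjusted p under 0.05. No share of all rows is given for this limit here or below, so the unadjusted counts say nothing about abundant genes as such. DESeq2 called 8 of the 140 higher, beside 5.76% of all rows tested. Limma-voom called 2, beside 2.74%, and limma-voom with quality weights per group 14, beside 3.52%.

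The calls rested on the libraries used. Without low library 3, edgeR called 96 of the 161 genes higher and 10 lower in the high group, beside 15.2% and 14.0% of all 18470 rows tested in that fit, and 85 of the 140 higher and 2 lower. All 10 genes called with the full data were also called there. Without high library 1, 2 or 3, edgeR called 0 of the 161, beside 0.365%, 0.290% and 0.427% of all rows, and 19, 19 and 18 had an unadjusted p under 0.05. Without low library 1 it called 0 higher and 7 lower, beside 1.05% and 0.882% of all rows, and 17 were higher at an unadjusted p under 0.05.

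The typical log2 fold change of the 161 genes (high over low) was 0.32, with an interquartile range of 0.04 to 0.57, while the median of all rows tested was -0.06. It was above 0 for 122 of the 161 genes and for 46.0% of all rows. The value was 0.71 without low library 3 and 0.10 without low library 2, where the medians of all rows were -0.03 and -0.04. For the 140 genes it was 0.31. With scaling by library size alone the medians were 0.24 for the 161 genes and -0.21 for all rows, a difference of 0.45 in place of 0.38, and 8 genes were called higher and 6 lower, beside 1.93% and 1.07% of all rows.

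The groups did not overlap in 83 of the 161 genes. Every high library was above every low library in 57 genes (35.4%), beside 13.0% of all rows tested, and below in 26 genes (16.1%), beside 15.0%. By the TMM scale there were 39 genes above (24.2%, beside 15.6%) and 16 below (9.94%, beside 13.9%). These counts include the genes that reached the limit through 1 group, for which a difference is built in. Of the 140 genes at 1000 CPM or more in both groups, 48 were above (34.3%) and 17 below (12.1%), and by the TMM scale 29 were above and 7 below.

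The largest differences belonged to genes lower in the high group. There were 8 genes at least 2-fold lower and 8 at least 2-fold higher, beside 7.41% and 7.20% of all rows tested, and 6 and 4 of these were called. Of the 8 lower genes, 7 reached 1000 CPM in the low group only and were highest in low library 3, at 4.86 to 10.9 times the CPM of low library 1. In the high libraries the same 7 had CVs of 1.91% to 7.81%.

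Cg19979, whose values are given above, averaged 357 CPM ± 6.81 across the high libraries, and the low libraries averaged 15376 CPM ± 14065 (SD, n = 3 each). By edgeR the log2 fold change was -5.50 ± 0.85 (SE), adjusted p = 0.0185. Without low library 3 the log2 fold change was -4.02, which is 16.2-fold in place of 45.3-fold. Cg19980 had 239, 214 and 250 CPM in the high libraries, against 1858, 4365 and 16881 CPM in low libraries 1, 2 and 3. Every low library was above every high one, by 7 times or more. For this gene edgeR gave a log2 fold change of -5.13 ± 0.94 (SE), adjusted p = 0.0289, and of -3.37, or 10.3-fold in place of 35.1-fold, without low library 3. Both calls were lost without any 1 of the high libraries (adjusted p by edgeR from 0.123 to 0.158) and with no count filter (0.0519 and 0.117). 

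Of the other 4 fallen genes, the one at rank 156 had the largest fold change and the lowest level in the high group. It had 33.2, 30.8 and 28.5 CPM in the high libraries, from 279 to 340 reads each, and 823, 1793 and 4001 CPM in low libraries 1, 2 and 3. The log2 fold change by edgeR was -6.19 ± 0.75 (SE), adjusted p = 0.00825, and -5.05 without low library 3, or 33.1-fold in place of 73.1-fold. By group means it moved from place 3197 in the high group to place 83 in the low group, the farthest of the 161. The gene at rank 88 moved by 527 places and Cg19980 by 512. The gene at rank 59 was the 1 fallen gene with at least 1000 CPM in both groups, at 1147, 1127 and 1099 CPM among the high libraries, against 2912, 6510 and 4144 CPM among the low ones. Low library 2 was the highest there, unlike in the other 7. By edgeR its log2 fold change was -1.86 ± 0.31 (SE), adjusted p = 0.0214. Cg05034 had a log2 fold change of -3.96 ± 0.95 (SE) and an adjusted p of 0.0590 by edgeR, and so was not called, while its groups did not overlap. With low library 3 left out, edgeR gave it a log2 fold change of -1.95, or 3.87-fold in place of 15.6-fold, and an adjusted p of 0.00216. It was also called without low library 1 (adjusted p = 0.0479 by edgeR) and by DESeq2 (adjusted p = 0.00551).

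The 4 genes that rose were at ranks 116 to 151 and rose 2.19-fold to 5.65-fold. Cg11531, at rank 116, had 2563, 2591 and 2526 CPM among the high libraries, against 821, 582 and 821 CPM among the low ones. The groups were far apart, with a CV of 1.28% in the high group and 18.6% in the low group. By edgeR it rose 3.65-fold, a log2 fold change of 1.87 ± 0.31 (SE), adjusted p = 0.0213. Cg07444, at rank 136, had 1700, 1772 and 1659 CPM among the high libraries, against 1048, 788 and 731 CPM among the low ones. Low library 1 was nearest to the high level. By edgeR it rose 2.19-fold, a log2 fold change of 1.13 ± 0.23 (SE), adjusted p = 0.0364. Its call was lost with the replicate number as a block (adjusted p = 0.0557 by edgeR). Both calls were lost without any 1 of the high libraries (adjusted p by edgeR from 0.123 to 0.191) and without low library 1 (0.0716 and 0.0789). The other 2 risen genes, at ranks 143 and 151, had 1932 to 2246 and 1601 to 1738 CPM in the high libraries and 271 to 499 and 528 to 792 CPM in the low libraries.

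**Figure D5:**
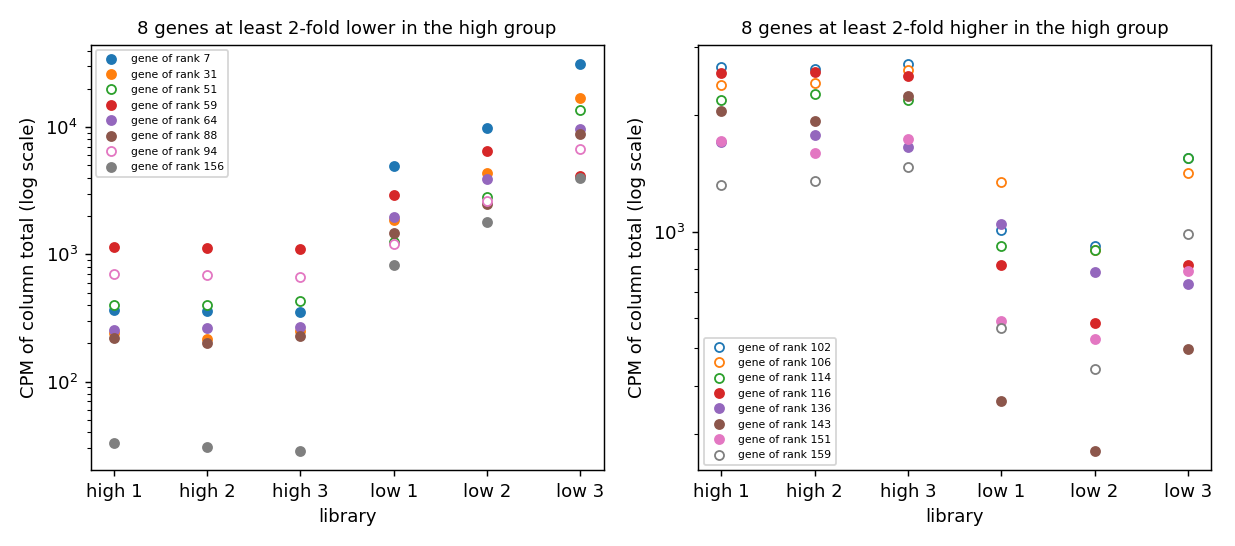
CPM (log scale, y axis) in each library (x axis) of the 8 abundant genes at least 2-fold lower (left) and the 8 at least 2-fold higher (right) in the high group, with filled points for genes called by edgeR and open points for the others. The groups overlap in none of these 16 genes; 7 of the 8 lower genes are highest in low library 3, and 7 of the 8 higher genes are lowest in low library 2.

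Some of the abundant genes stood next to each other in the order of their identifiers, a feature the choice did not use. There were 11 runs of consecutive numbers, 9 of 2 genes and 2 of 3 genes, with 24 of the 161 genes in them. Whether consecutive numbers mean neighbours on a chromosome is not stated in the sources used here. In all 11 runs the log2 fold changes had the same sign within the run, and they differed by 0.06 to 1.97 within a run, with a median of 0.15. A shared sign says little, since 122 of the 161 genes were above 0. In the runs that start with Cg19697 and Cg19979 it was built in, because all their genes reached 1000 CPM in the low group only. Cg21914 and Cg21915 were near 0 (-0.099 and -0.035), and both were above 0 without low library 3. Both genes of the run from Cg29199 to Cg29200 had less in low libraries 2 and 3, and together they held 2.69% ± 0.204 of the reads in the high and 2.65%, 1.15% and 1.45% in low libraries 1, 2 and 3.

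The run of 3 that starts with Cg19979 held only 0.0622% ± 0.00165 of the reads in the high group. In low libraries 1, 2 and 3 it held 0.761%, 1.60% and 5.22%. Of the reads of these 3 genes, Cg19979 made up 60.0% to 64.8% in the low libraries and 55.6% to 59.4% in the high libraries. Cg19980 made up 24.4% to 32.3% and 35.5% to 39.8%, and the third gene 7.66% to 11.2% and 4.54% to 5.22%. The proportions of all 3 genes thus differed between the groups without overlap. All 3 fell in the high group, a direction built into the choice of genes that reached 1000 CPM in the low group only. The run of Cg07444 and Cg07445 held 0.478% ± 0.00638 of the reads of the high libraries and 0.255% ± 0.0355 of the low ones. Cg07445, with a log2 fold change of 0.98 ± 0.24 (SE), had an adjusted p of 0.0624 by edgeR and was not called. In 6 of 14 alternatives it was called, among them DESeq2 (adjusted p = 0.000376), limma-voom (adjusted p = 0.0473) and edgeR without low library 3 (adjusted p = 0.00194). The run of Cg11531 and the next identifier held 0.479% ± 0.0100 and 0.197% ± 0.0375 (SD, n = 3 each).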

How the data were processed

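The data are RNA-seq counts of 3 high and 3 low EPA+DHA libraries from mantle. The authors deposited them as raw counts, whole numbers with unequal column totals. Per the labels' protocols, libraries were made from poly(A)-captured, fragmented RNA with PCR amplification. No aligner, counting tool, build, annotation or strand setting is given in the sources used here, nor what was done with reads shared by near-identical copies, so genes with such copies are uncertain. The high columns bear another letter than the labels' library names, so they were assigned through the group letter in the series description and the number in the title. Rows without a gene name numbered 0, as did columns of other samples.

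CPM is a count over its column total times 1000000. The test was edgeR 4.0.16 (robust quasi-likelihood F test, TMM factors, filterByExpr, R 4.3.3) over all 17809 rows that passed the filter, with adjustment by Benjamini-Hochberg over them. All 161 abundant genes passed the filter. Standard errors are the fold change over the square root of F. Alternatives were limma-voom (limma 3.58.1), DESeq2 1.42.0, no count filter, factors by RLE, from library size alone or from the other rows, a replicate block, and fits without 1 library each. Voom with quality weights per group and the restriction to 1000 CPM in both groups were chosen after seeing the data. Shares were compared by exact permutation tests (scipy 1.17.1). The edgeR procedure was also run on simulated counts with planted changes and the same dispersion in both groups. It therefore could not test how the calls fare when 1 group is more variable, as here.

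Genes named are the 10 of highest mean CPM, 2 called genes in each direction, those with the 3 highest and 3 lowest CVs of each group, those at the limit and those with the largest change of rank. Of called genes only 2 identifiers in each direction are printed, since they carry no names. The genes and tests were chosen with earlier results of these data known.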

Additional observations from a re-analysis of the deposited data

How the results depend on the processing

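The alternatives gave 421 values, of which 360 led to the same call or differed by less than their margin. Of the 421, 266 were adjusted p-values of named genes not called, which have no sign, and neither have CVs and counts of genes. Among the values with a sign, 0 changed it. Fold changes of uncalled genes were not among them, and that of Cg21982 went from a log2 value of -0.093 to 0.055 without low library 3. The 4 genes called higher became 8 with library size alone, 14 with DESeq2 and 21 with limma-voom with quality weights per group, and 0 among the 140 genes at 1000 CPM or more in both groups (edgeR, 15 at an unadjusted p under 0.05). The 6 called lower became 2 with no count filter, a fit over 30392 rows for which no share of all rows is given, and 1 among the 140 genes. Leaving out 1 library gave 0 to 96 higher and 0 to 10 lower, the highest values without low library 3, and the lowest without a high library or, for higher genes, without low library 1 as well. The cause was not tested. The median CV in the low group was 41.0% with TMM-adjusted library sizes and 11.7% to 27.0% without 1 library, and in the high group it was 2.06% to 3.84%. The 26 genes with every high library below every low library became 16 with TMM-adjusted library sizes. The median log2 fold change of the abundant genes was 0.10 to 0.71 without 1 library and 0.24 to 0.41 otherwise. Their share of reads, high minus low, was 2.98 percentage points. It fell to 0.0832 without low library 2 and reached 6.58 without low library 3, and both values were counted among the 360.

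With the replicate number as a block, 3 genes were called higher and 6 lower, and the call of Cg07444 was lost. No share of all rows is given for that fit, so these counts show only how the calls moved. Libraries of the same number deviated together with correlations of 0.0575, 0.0530 and 0.163 over 17809 rows, which is too weak to treat the numbers as pairs. Each abundant gene had at least 279 reads in each library. The spread between oysters was not measured.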

Other observations

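Rows with XLOC identifiers reached a mean of 1000 CPM in 6 cases. Together they held 1.59% ± 0.0298 of the reads of the high libraries and 1.25% ± 0.0828 of the low ones (SD, n = 3 each), with every high library above every low one and p = 0.1 in the exact permutation test, the smallest possible.

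The rows listed just before and after the run of 3 that starts with Cg19979 were also higher in the low libraries but at far lower levels. Cg19978 had 2.12 CPM ± 0.163 in the high and 4.63, 6.63 and 16.3 CPM in low libraries 1, 2 and 3, and Cg19982 had 0.267 CPM ± 0.232 (SD, n = 3) and 1.57, 6.47 and 19.7 CPM. Neither was called (adjusted p by edgeR of 0.0941 and 0.0591). Cg19696, just under the limit of 1000 CPM, comes directly before Cg19697, an abundant gene with 695, 688 and 660 CPM in the high and 1207, 2609 and 6689 CPM in the low libraries. Both were highest in low library 3 and not called (adjusted p by edgeR of 0.0539 and 0.0866). The row before them and the 2 rows after them were called lower in the high group (adjusted p by edgeR of 0.00177, 0.0293 and 0.0243). These rows were picked out after their values were seen.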
